A study of Mus musculus with 15 samples.

Results

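The genes described here are 35 markers of macrophages and microglia-like cells, followed through nerve injury and through deletion of the microRNA-183 cluster in mouse dorsal root ganglia. They were chosen by symbol, as the Ensembl identifiers of the count table that map to a list of macrophage genes, and all 35 were found among its 39179 identifiers. All 35 also passed the filter on low counts, which left 16976 genes to test. The members fall into 7 groups by role, namely identity markers, leukocyte surface proteins and integrins, Fc receptors and their adapters, complement, pattern recognition and scavenger receptors, lysosome and lipid handling, and microglia-like genes.

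Dorsal root ganglia hold the cell bodies of sensory neurons, wrapped by satellite glia, together with Schwann cells, vessels and resident macrophages. Macrophages there sense and clear material through scavenger receptors, complement and Fc receptors, digest it in lysosomes, and depend on the growth factor CSF1 and its receptor. After a peripheral nerve is cut, macrophages around the neuron cell bodies are known to become more numerous and to change their state.

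Bulk RNA from lumbar ganglia 4 to 6 was sequenced from 15 mice, 1 library per animal, aged 3 to 6 months and of a mixed background that was mostly C57bl6. The naive control group had 5 animals, of which replicates 1, 2, 3 and 6 were Wnt1-Cre and replicate 7 was wt. The naive knockout group had 4 animals of genotype Wnt1-Cre; mirflox/flox (replicates 4, 5, 8 and 9). The injured groups had undergone spared nerve injury (SNI), a model of neuropathic pain in which the sural branch of the sciatic nerve is kept while its common peroneal and tibial branches are ligated and cut. The injured control group had 3 animals, of which replicate 15 was Wnt1-Cre and replicates 18 and 23 were wt, and the injured knockout group had 3 Wnt1-Cre; mirflox/flox animals (replicates 13, 19 and 21). The time between surgery and collection is not given in the sources used here. Wnt1-Cre acts in the neural crest lineage, which gives rise to the sensory neurons and glia of the ganglion but not to its macrophages. Which cells the counts of a member came from was not measured in this bulk RNA. Animal numbers ran from 948 to 956 in the injured knockouts, from 974 to 976 in the injured controls and from 1041 to 1082 in the naive animals, so neither injury nor, among injured animals, genotype can be told apart from this order.

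The 3 microRNAs of the deleted cluster are shown because they share most of their seed, bases 2 to 8 in capitals, and these seeds were searched for in the members (mature sequences from RefSeq, GRCm38.p6):
mmu-miR-182-5p: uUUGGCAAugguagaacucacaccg
mmu-miR-96-5p: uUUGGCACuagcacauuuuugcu
mmu-miR-183-5p: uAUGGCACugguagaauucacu
These libraries do not check the deletion, because the hairpins are not captured by an mRNA preparation. Mir182 had 1 count over the naive controls and 1 over the injured controls, Mir96 had 1 over the naive controls, and Mir183 had 0 in every library. An 8-base site for any of the 3 seeds was found in the annotated 3′ UTR of 1 of the 35 members (2.86%), against 1478 of 14465 tested genes with an annotated 3′ UTR (10.2%). The member was C3ar1, the receptor for complement fragment C3a, with a miR-96-5p site at chr6:122849305-122849312 on the minus strand (GENCODE M21, GRCm38), shown here with the site in capitals:
C3ar1 site: gacagaacacaGTGCCAAAtgccacccact
C3ar1 is described with the complement genes below.

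Promoters of the members were searched for the letters GAGGAAGT and the shorter GAGGAA, on both strands, since PU.1, the product of Spi1 and a defining transcription factor of macrophages, binds sequences of this kind. RefSeq windows from 250 bases before to 50 bases after the start were matched for 28 of the 35 members. GAGGAAGT was found in 3 of the 28 (10.7%) and in 3.69% of 27025 genes with a window, and GAGGAA, which the longer motif contains, in 17 of 28 (60.7%) and in 31.3%. The 3 windows with the longer motif and windows of C1qb and Trem2, a pair of members that rose after injury, are shown in part, with every match in the shown stretch in capitals (GRCm38.p6):
C1qc (chr4:136893057-136893154, minus strand): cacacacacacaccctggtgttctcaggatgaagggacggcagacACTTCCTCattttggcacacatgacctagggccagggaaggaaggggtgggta
Ctss (chr3:95526739-95526815, plus strand): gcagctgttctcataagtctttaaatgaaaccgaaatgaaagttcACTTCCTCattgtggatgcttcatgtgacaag
Cd53 (chr3:106790120-106790188, minus strand): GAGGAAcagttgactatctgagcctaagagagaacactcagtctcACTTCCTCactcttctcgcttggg
C1qb (chr4:136886180-136886275, minus strand): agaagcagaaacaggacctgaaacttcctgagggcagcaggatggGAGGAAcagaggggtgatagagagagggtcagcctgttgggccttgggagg
Trem2 (chr17:48346316-48346411, plus strand): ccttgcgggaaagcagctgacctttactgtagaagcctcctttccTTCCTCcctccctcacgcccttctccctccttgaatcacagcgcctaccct
A match is a description of the letters and was not tested against binding or against the changes below.

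Library totals ran from 5252920 to 10822762 counts, and levels are given as CPM, the usual scaling of a gene's count to the total of its library. A count of 0 allows up to 0.273 to 0.647 CPM, which covers counting error only. Injured control replicate 23 stood apart, with the lowest total, 7.43% of its counts on mitochondrial genes against 2.26% to 3.60% elsewhere, and the highest level of all 15 libraries for 18 of the 35 members. Naive knockout replicate 4 was the highest of its 4 libraries for 23 members. Injured control replicate 15, the only Wnt1-Cre animal of its group, was the lowest of 3 for 28 members, so that in the injured controls genotype (wt or Wnt1-Cre) and this 1 library cannot be told apart. All adjusted p-values below are from edgeR's quasi-likelihood test with Benjamini-Hochberg adjustment over the 16976 genes, a call is an adjusted p under 0.05, and CPM are scaled by TMM factors.

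Every member had counts in every library, at least 7 counts and 0.730 CPM (Siglech), which shows detection and not the cell of origin. Levels differed widely. Per kilobase of exon in naive controls, Apoe led at 810 CPM per kb, followed by Lyz2 at 91.4, Ly86 at 24.9, C1qa at 17.97 and Tyrobp at 17.0, and the lowest were Trem2 at 0.401 and Msr1 at 0.245. Apoe, a lipid carrier that satellite glia also make, took 62.4% to 81.3% of the summed CPM of the members, and it is left out of the sums that follow. Without it the 34 other members summed to 517 ± 36.3 CPM (SD, n = 5) in naive controls, 547 ± 101 (n = 4) in naive knockouts, 872 ± 319 (n = 3) in injured controls and 721 ± 77.2 (n = 3) in injured knockouts. In bulk ganglia, more macrophages and more of a transcript per macrophage cannot be told apart.

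**Figure D1:**
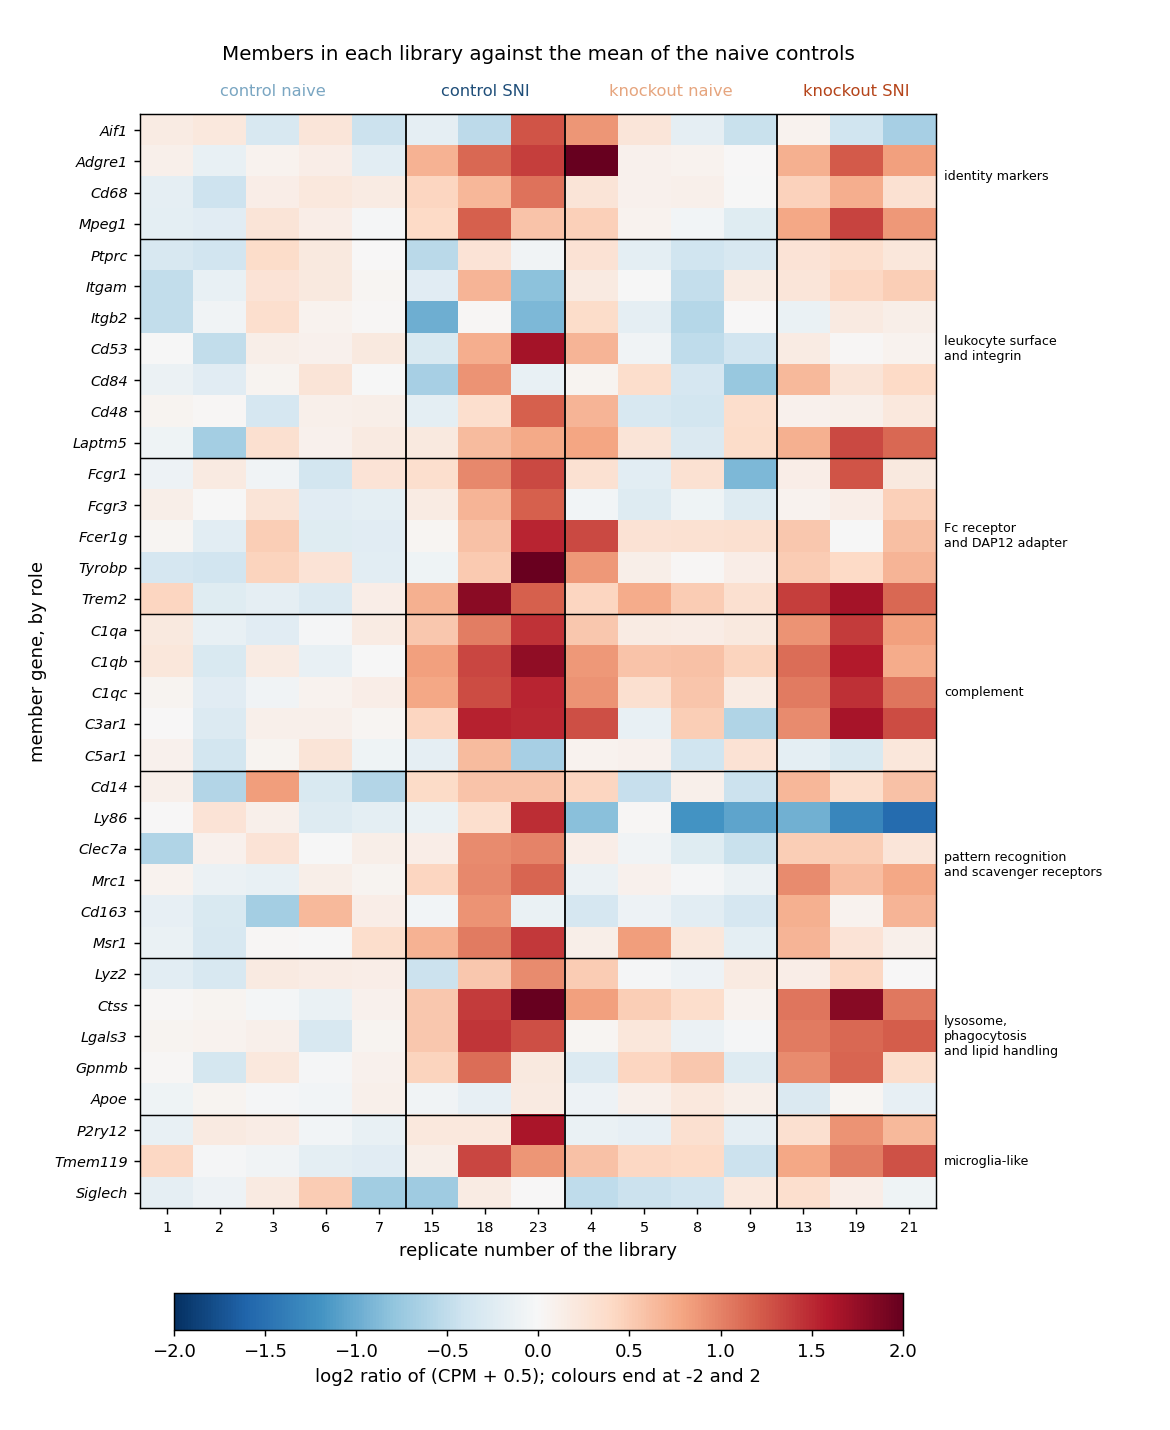
Colour gives the log2 ratio of each member (rows, by role) in each library (columns, by replicate number) to the mean of the 5 naive controls, with 0.5 CPM added. The C1q genes, Trem2, Ctss and Lgals3 are red in all injured libraries, Ly86 is blue in the injured knockouts, and replicates 23 and 4 stand out within their groups.

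The first comparison asked which members changed with injury in control animals. After SNI 9 of the 35 rose and 0 fell, where 2.12% of all genes tested rose and 0.359% fell. The 9 were the C1q chains C1qa, C1qb and C1qc, the phagocytic receptor Trem2, the protease Ctss, the lectin Lgals3, the scavenger receptors Mrc1 and Msr1, and the lysosomal marker Cd68. The median log2 fold change was 0.78 over the members and 0.02 over all genes, and 31 members had a positive value. In 14 members every injured control was above every naive control, against 4.62% of all genes. DESeq2 called 12 members and limma-voom 9, where they called 3.97% and 2.23% of all genes in either direction.

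The same question in knockout animals gave 6 members that rose and 0 that fell, where 7.17% of all genes rose and 2.94% fell. They were Lgals3, Mrc1, Mpeg1, C1qa, C1qc and Trem2. The median was 0.57 over the members and -0.02 over all genes, 28 members had a positive value, and 13 did not overlap between injured and naive, against 16.6% of all genes. Trem2, C1qa, C1qc, Mrc1 and Lgals3 were called in both genotypes, and Cd68, Mpeg1 and Ctss joined them in having no overlap in either genotype. The 2 comparisons share no library, although they share 1 estimate of the spread. DESeq2 called 8 members and limma-voom 7, where they called 13.3% and 10.7% of all genes in either direction.

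**Figure D2:**
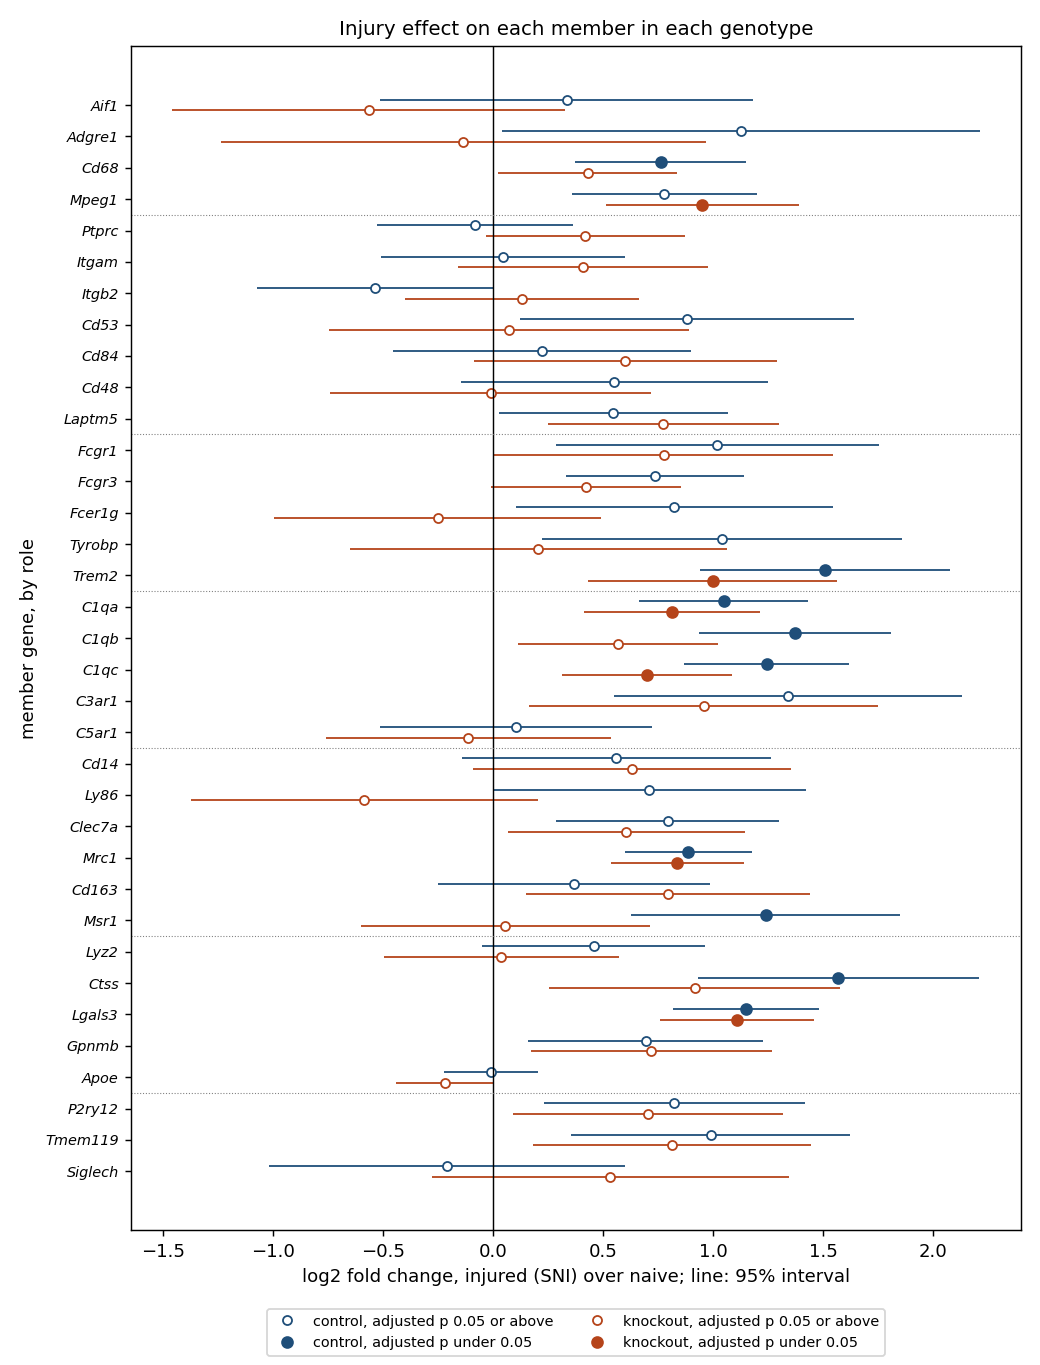
Points give the log2 fold change of injured over naive for each member, with its 95% interval, in controls (blue) and knockouts (orange), and filled points have an adjusted p under 0.05. Filled pairs are seen for Trem2, C1qa, C1qc, Mrc1 and Lgals3, while Ly86 lies to the right of 0 in controls and to the left in knockouts.

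The count in controls rested on which injured libraries were in the fit. Without replicate 15, 19 members rose, and the share of all genes that rose was then 6.35%. Without the 3 wt libraries, which leaves replicate 15 as the only injured control and assumes that it varies like the other groups, 0 members were called where 1.38% of all genes rose, the median was 0.21 and 20 members had a positive value. In knockouts the count was 2 without injured replicate 19, where 2.79% of all genes rose. It was 15 with only the knockout libraries in the fit (2467 of 16458 genes rose) and 13 without the 3 wt libraries (2630 of 17561), so the share of all genes was higher in these fits too.

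Among the identity markers, Cd68, a glycoprotein of macrophage lysosomes, was at 4.83, 4.02, 6.16, 6.47 and 6.28 CPM in the naive controls (in the order of the replicates given above, as in all lists of levels) and at 7.61, 9.09 and 12.3 CPM in the injured controls. All 3 injured libraries lay above the naive ones, and Cd68 rose by 0.76 on the log2 scale (SE 0.18, adjusted p = 0.0366), a call that was lost without any of naive replicates 1 and 2 or injured replicates 18 and 23. In knockouts Cd68 went from 5.49 to 6.71 CPM when naive to 7.002 to 9.56 after injury, also without overlap, with a log2 fold change of 0.43 that was not called (adjusted p = 0.162). Mpeg1, which encodes the pore-forming protein perforin-2 of phagocytes, was at 35.8, 27.1, 24.7 and 21.6 CPM in naive knockouts and at 44.5, 66.3 and 47.5 CPM in injured knockouts. The groups did not overlap and Mpeg1 rose by 0.95 (SE 0.21, adjusted p = 0.00943), but not without injured replicate 19 (adjusted p = 0.0731). In controls it missed the threshold at a log2 fold change of 0.78 (adjusted p = 0.0501), again without overlap.

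Adgre1 encodes F4/80, the classical surface marker of mouse macrophages. It was between 7.11 and 9.20 CPM in naive controls and at 13.8, 18.997 and 22.4 CPM in injured controls, without overlap, yet the log2 fold change of 1.13 was not called (SE 0.50, adjusted p = 0.302). The naive knockouts were at 45.8, 8.82, 8.74 and 8.36 CPM and the injured knockouts at 13.9, 20.2 and 15.0045 CPM. Replicate 4 alone was above every other library, 5.31 times the mean of the other naive knockouts, and the log2 fold change of injury was -0.14. Without replicate 4 it was 0.93 and was called (adjusted p = 0.00833). Aif1, which encodes the actin-bundling protein IBA1, had overlapping groups in both genotypes, at log2 fold changes of 0.33 in controls and -0.57 in knockouts, and was not called in either.

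The pan-leukocyte and integrin genes had 0 of 7 members called in any comparison by edgeR. At an unadjusted p under 0.05 there were 2 with injury in controls and 1 in knockouts, all higher. Of all genes, 9.85% were higher at this threshold in controls and 16.0% in knockouts. Their medians with injury were 0.22 in controls and 0.41 in knockouts. Ptprc, which encodes CD45, was at 10.7, 19.2 and 15.1 CPM in injured controls within the naive range of 12.1 to 20.5 CPM apart from replicate 15. Itgam and Itgb2 encode the chains of complement receptor 3, which neutrophils also carry. Itgam overlapped between injured and naive controls and lay above the naive range in all injured knockouts, at 18.1, 20.4 and 21.6 CPM against 10.8 to 17.4 CPM (log2 fold change 0.41, adjusted p = 0.336). Its exons share 3450 bases with the gene Gm49368 on the same strand, and how shared reads were counted is not given in the sources used here. Itgb2 had the lowest value in controls, -0.54 (adjusted p = 0.320). Laptm5, a lysosomal membrane protein of blood cells, was nearest to a call, at 0.77 in knockouts (SE 0.25, adjusted p = 0.0596). The tetraspanin Cd53 and the SLAM family members Cd84 and Cd48 overlapped in both genotypes.

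The Fc receptor and adapter group had 1 of 5 members called in each genotype, and the same one. Trem2 encodes a lipid-sensing receptor that signals through the adapter encoded by Tyrobp. It was at 2.86, 1.61, 1.68, 1.55 and 2.22 CPM in naive controls and at 3.55, 8.16 and 5.18 CPM in injured controls. Each injured library exceeded each naive one, and Trem2 rose 2.85-fold (log2 1.51, SE 0.27, adjusted p = 0.00373), although the call was lost without injured replicate 18 (adjusted p = 0.0616). Knockouts gave 2.85, 3.67, 3.04 and 2.61 CPM when naive and 5.94, 7.39 and 5.00 CPM after injury. The groups were again apart, and Trem2 rose 2.00-fold (log2 1.00, SE 0.27, adjusted p = 0.0271), a call lost without naive replicate 4, 8 or 9 or injured replicate 19.

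Tyrobp itself, which encodes the DAP12 adapter, was at 10.6, 16.5 and 46.2 CPM in injured controls against 8.61 to 15.7 CPM in naive controls. Only replicate 23 was far above the naive range, and the log2 fold change of 1.04 was not called (SE 0.38, adjusted p = 0.208). Without the 3 wt libraries it was -0.13. Fcer1g, the signalling chain of several Fc receptors, had the same library on top, at 22.9 CPM against 7.82 and 11.7 CPM in the other injured controls. The receptors Fcgr1 and Fcgr3 had log2 fold changes of 1.02 (adjusted p = 0.162) and 0.74 (adjusted p = 0.0523) in controls and of 0.78 and 0.42 in knockouts. Reads of Fcgr3 may be shared with its close relative Fcgr2b.

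The complement group held the most calls of any role in controls, 3 of 5 members. C1qa, C1qb and C1qc encode the 3 chains of C1q, the recognition unit of the classical pathway, which macrophages are the main source of, and their genes lie next to each other on chromosome 4 (C1qb at 136880129 to 136886187, C1qc at 136889804 to 136893065 and C1qa at 136895917 to 136898803, minus strand, GENCODE M21). C1qb was at 18.8, 12.7, 17.9, 14.3 and 15.9 CPM in naive controls and at 28.6, 41.1 and 55.9 CPM in injured controls. The lowest injured control was well above the highest naive one. C1qb rose 2.59-fold (log2 1.37, SE 0.21, adjusted p = 0.000965), C1qc rose 2.37-fold (log2 1.25, SE 0.18, adjusted p = 0.000505) and C1qa rose 2.07-fold (log2 1.05, SE 0.18, adjusted p = 0.00313). All 3 were called without any single library in turn.

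In knockouts C1qa and C1qc rose and C1qb did not pass. C1qb was at 29.6, 23.9, 24.0 and 21.9 CPM in naive knockouts and at 35.01, 48.6 and 27.0 CPM after injury, so that the groups overlapped, and its log2 fold change of 0.57 was not called (SE 0.21, adjusted p = 0.102). C1qc, at 16.1 to 27.1 CPM when naive and 29.8 to 40.0 CPM after injury, rose 1.62-fold (log2 0.70, SE 0.18, adjusted p = 0.0244). C1qa, at 20.7 to 27.2 CPM and then 33.5 to 50.2 CPM, rose 1.76-fold (log2 0.81, SE 0.19, adjusted p = 0.0131). Both calls were lost without injured replicate 19 (adjusted p = 0.161 for C1qc and 0.111 for C1qa), and that of C1qc also without naive replicate 5, 8 or 9.

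C3ar1, the member with the miR-96-5p site, was at 2.41 to 3.28 CPM in naive controls and at 4.28, 9.81 and 9.50 CPM in injured controls. These groups did not overlap, and the log2 fold change was 1.34 (SE 0.37, adjusted p = 0.0764). The naive knockouts, at 8.13, 2.68, 4.47 and 1.83 CPM, spread around the naive controls, and knockout minus control was 0.51 on the log2 scale with a 95% interval of -0.25 to 1.27. C5ar1, the receptor for C5a, had overlapping groups throughout, with log2 fold changes of injury of 0.10 in controls and -0.11 in knockouts.

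**Figure D3:**
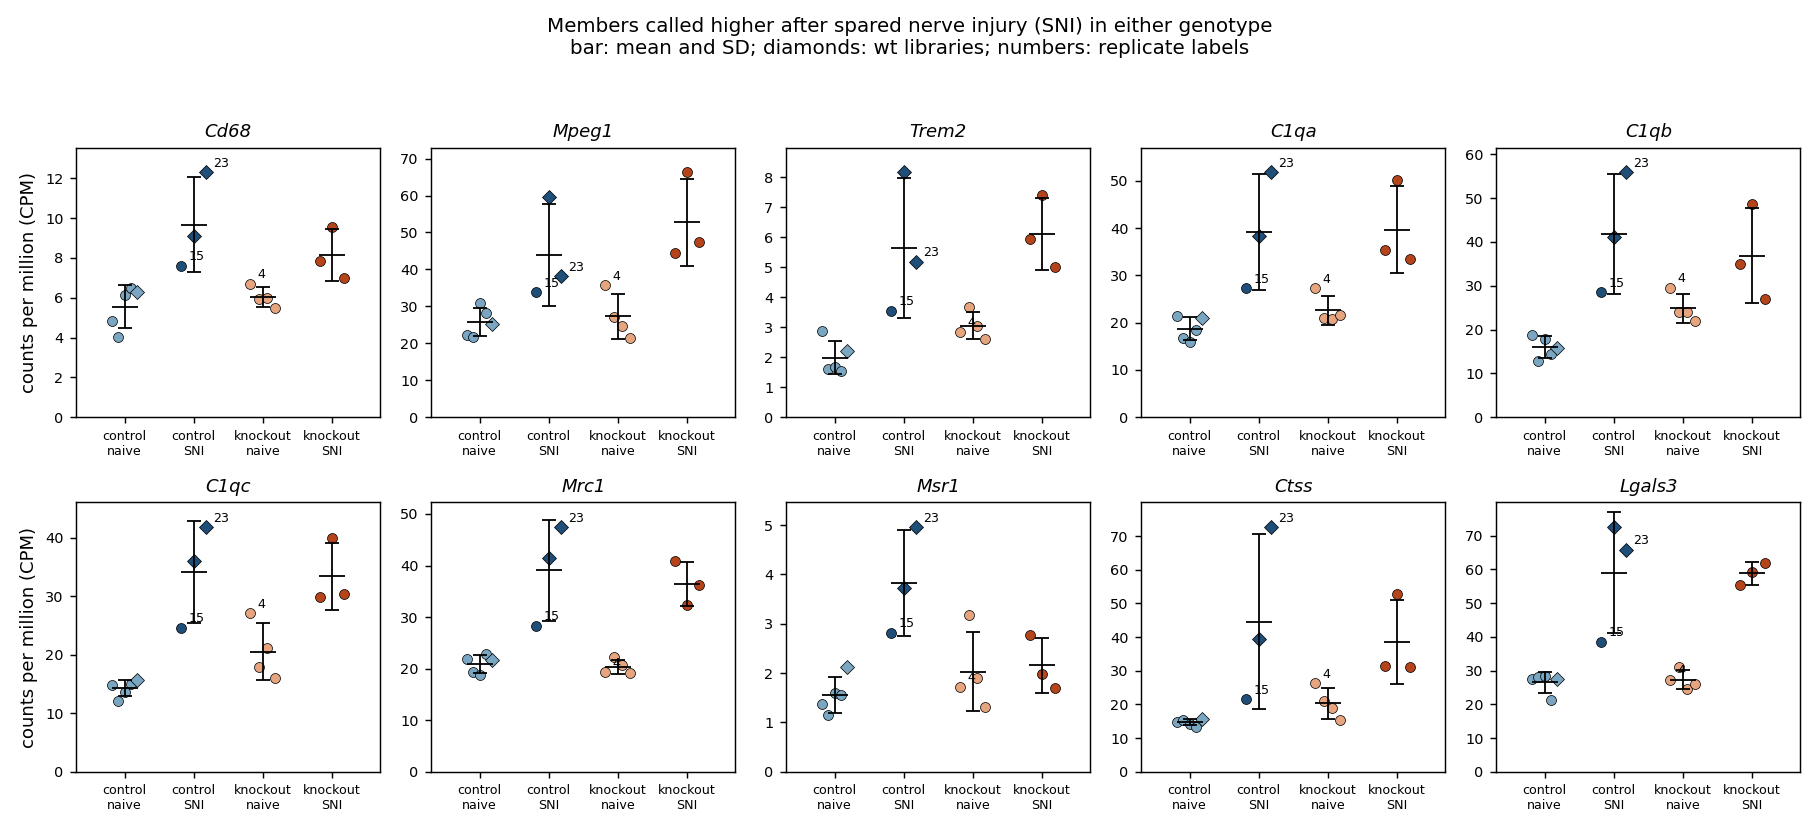
Levels in CPM of the 10 members called after injury in either genotype, 1 point per library, with the mean and SD of each group. Diamonds are wt animals, and the numbers 15, 23 and 4 mark the libraries named in the text. Replicate 15 is the lowest injured control in all 10 panels.

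Of the pattern recognition and scavenger receptors, Mrc1 gave the calls that moved least. Mrc1 encodes the mannose receptor CD206, found on resident macrophages of many tissues. Naive controls were at 22.0, 19.3, 18.9, 22.9 and 21.7 CPM and injured controls at 28.4, 41.4 and 47.5 CPM, and naive knockouts were at 19.3, 22.2, 20.6 and 19.2 CPM and injured knockouts at 40.8, 32.3 and 36.2 CPM. In both genotypes the injured animals lay wholly above the naive ones. Mrc1 rose by 0.89 in controls (SE 0.14, adjusted p = 0.000984) and by 0.84 in knockouts (SE 0.14, adjusted p = 0.00146), and it was called without any single library in turn in either genotype.

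Msr1 encodes the class A scavenger receptor. It was at 1.38, 1.15, 1.59, 1.55 and 2.12 CPM in naive controls and at 2.82, 3.72 and 4.96 CPM in injured controls, without overlap, and rose 2.36-fold (log2 1.24, SE 0.29, adjusted p = 0.0288). The call was lost in 6 of the 8 fits that left out 1 library. Naive knockouts were at 1.73, 3.17, 1.90 and 1.31 CPM and injured knockouts at 2.78, 1.99 and 1.70 CPM. These overlapped, at a log2 fold change of 0.05 (95% interval -0.60 to 0.71). Clec7a, the beta-glucan receptor dectin-1, had 0.79 in controls (adjusted p = 0.107) and 0.61 in knockouts (adjusted p = 0.139). Cd163, a haemoglobin scavenger receptor, had 0.37 in controls and 0.80 in knockouts (adjusted p = 0.107), and Cd14, a co-receptor for lipopolysaccharide, 0.56 and 0.63, with neither called.

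The lysosome, phagocytosis and lipid group had 2 of 5 members called in controls and 1 in knockouts. Lgals3 encodes galectin-3, a lectin of activated macrophages that has also been described in a subset of sensory neurons. Its levels were 27.5, 28.0, 28.4, 21.1 and 27.6 CPM in naive controls and 38.6, 72.6 and 65.8 CPM in injured controls. Naive knockouts were at 27.3, 31.1, 24.4 and 26.1 CPM and injured knockouts at 55.2, 59.2 and 62.0 CPM. The naive groups were alike in range and all 6 injured animals were above all 9 naive ones. Lgals3 rose 2.22-fold in controls (log2 1.15, SE 0.16, adjusted p = 0.000325) and 2.16-fold in knockouts (log2 1.11, SE 0.17, adjusted p = 0.000459), in every fit that left out 1 library.

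Ctss, which encodes cathepsin S, a lysosomal protease that microglia and macrophages also release, was at 14.9, 15.3, 14.3, 13.4 and 15.6 CPM in naive controls and at 21.6, 39.3 and 72.7 CPM in injured controls. The naive values lay close together and the injured ones spread far more, all above them. Ctss rose 2.97-fold (log2 1.57, SE 0.30, adjusted p = 0.00946), the largest value of the 35 in this comparison with all libraries. Over the fits that left out 1 library its log2 value ran from 1.06 to 1.91. In knockouts it went from 26.2, 20.9, 18.8 and 15.4 CPM to 31.5, 52.8 and 31.0 CPM, without overlap, at a log2 fold change of 0.92 that was not called (adjusted p = 0.0746). Gpnmb, a glycoprotein of lipid-laden macrophages, had 0.69 in controls (adjusted p = 0.194) and 0.72 in knockouts (adjusted p = 0.0876). Apoe differed little, at -0.01 in controls (95% interval -0.22 to 0.21) and -0.22 in knockouts (-0.44 to 0.01). Lyz2, the lysozyme of myeloid cells, had 0.46 and 0.04, and its reads may be shared with its near copy Lyz1.

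The 3 genes often used to tell microglia from other macrophages were detected at low levels, and by edgeR 0 of 3 were called. After injury 2 were higher at an unadjusted p under 0.05 in each genotype. Of all genes, 9.85% in controls and 16.0% in knockouts were higher at that threshold. P2ry12, a purine receptor, was at 7.40, 7.33 and 20.5 CPM in injured controls, above the naive range of 5.61 to 7.24 CPM, with replicate 23 far from the others (log2 fold change 0.82, adjusted p = 0.163). Tmem119, a membrane protein of microglia, had 0.99 in controls (adjusted p = 0.108) and 0.82 in knockouts (adjusted p = 0.0937), the latter without overlap. Siglech, a lectin of microglia and plasmacytoid dendritic cells, was at 0.730 to 2.37 CPM over all libraries and had a negative value in controls, -0.21.

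Replicate 23 differed from the other injured controls in step with gene length. Its log2 ratio to their mean fell with exon length over the 35 members (Spearman's rho = -0.64) and over the 16771 tested genes with a length (rho = -0.34), both given as descriptions within 1 set of libraries. The median ratio was 0.66 for the 20 members of at most 2893 bases and 0.01 for the 5 members over 5499 bases, against 0.25 and -0.25 for all genes in the same classes. Short members such as Tyrobp, Aif1, Fcer1g and Ctss were far above the other injured controls in this library, while Itgam and Gpnmb were below them. Without replicate 23, 7 of the 9 members called in controls remained called, Cd68 and Msr1 being lost, and the median was 0.53. Whether RNA quality has a part in the higher levels of this library was not tested.

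**Figure D4:**
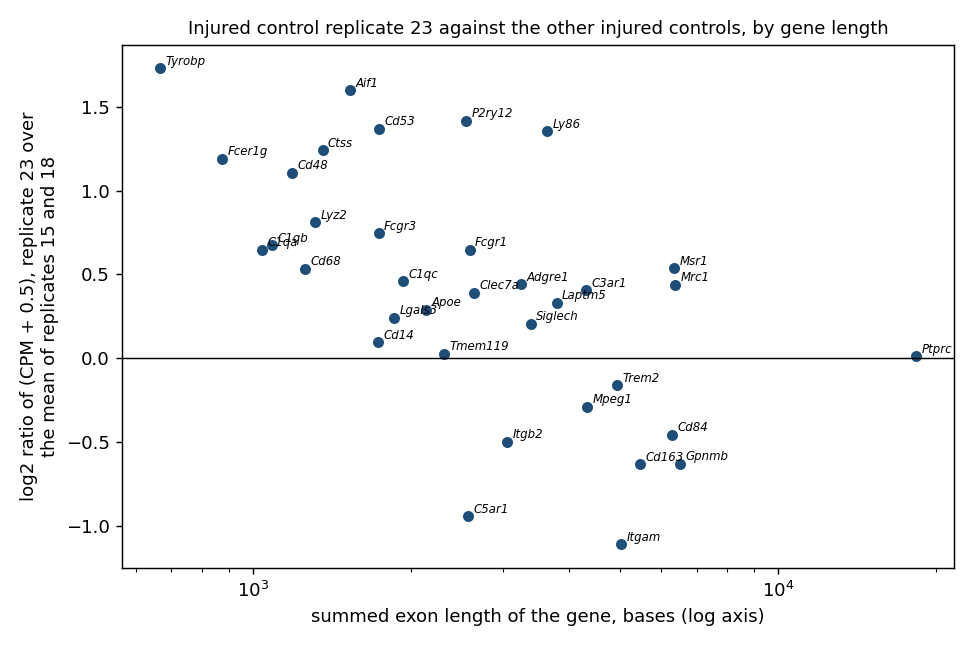
Each point is a member, placed by its summed exon length (x, log axis) and by the log2 ratio of its level in injured control replicate 23 to the mean of replicates 15 and 18 (y, with 0.5 CPM added). Tyrobp, of 667 bases, is on top and Itgam, of 5024 bases, is lowest.

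The next comparison asked whether the deletion changed the members in naive animals. DESeq2 and limma-voom called 0 of 35, where they called 3.04% and 2.02% of all genes in either direction. By edgeR also 0 of 35 were called, where 0.889% of all genes were called higher and 1.00% lower. At an unadjusted p under 0.05 there were 5 of 35 members, all higher in knockouts, namely C1qb, C1qc, Trem2, Adgre1 and Fcer1g, against 11.7% of all genes in either direction and 5.46% higher. The median was 0.09 over the members against 0.00 over all genes, and 22 members were positive. C1qb and C1qc were the 2 members in which all naive knockouts lay above all naive controls, against 4.87% of all genes.

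C1qb, with the levels given above, was higher in naive knockouts by 0.64 on the log2 scale (SE 0.19, 95% interval 0.23 to 1.05, adjusted p = 0.129), and C1qc by 0.53 (SE 0.17, adjusted p = 0.153). Fitting only the 2 naive groups called C1qb (adjusted p = 0.00179), Ctss (0.0229) and C1qc (0.0235), in a fit that called 3.06% of all genes higher. Leaving out the 3 wt libraries called C1qc (0.0438), with 2.06% of all genes higher. Adgre1 had the largest value, 1.12 (SE 0.46, adjusted p = 0.348), which came from replicate 4 as described. Fcer1g was at 19.9, 9.42, 9.60 and 9.67 CPM in naive knockouts and at 7.88, 6.55, 10.9, 6.38 and 6.46 CPM in naive controls, at 0.67 (adjusted p = 0.410). Without replicate 4 the median over the members was 0.01, and the count of calls stayed at 0 in each fit that left out 1 library. Lgals3 and Mrc1 had the narrowest intervals around 0 after Apoe, -0.28 to 0.36 and -0.31 to 0.23.

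Between injured animals, 0 members were higher in knockouts and 1 was lower, where 0.666% of all genes were called higher and 0.377% lower. The 1 was Ly86, which encodes MD-1, the partner of the receptor RP105 that restrains signalling by Toll-like receptors. It was at 82.3, 113 and 251 CPM in injured controls and at 46.0, 36.1 and 30.8 CPM in injured knockouts. The groups did not overlap, and Ly86 was lower in knockouts (log2 fold change -1.98, SE 0.39, 95% interval -2.82 to -1.13, adjusted p = 0.0332). Naive controls were at 90.9, 109, 96.5, 75.7 and 79.1 CPM and naive knockouts at 50.4, 92.2, 39.3 and 43.4 CPM. Of the naive knockouts 3 lay below every control library and replicate 5 lay among them (log2 fold change -0.68, adjusted p = 0.428). DESeq2 and limma-voom also called Ly86 alone of the members among injured animals, in fits that called 3.67% and 0.23% of all genes lower. But the call was lost without control replicate 23, without any one of the knockout replicates and without the wt libraries. It was also lost without the filter on low counts and with only the injured groups in the fit, where 0 of 16249 genes were called. Values of Ly86 ran from -2.27 to -1.14 over all alternatives.

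Msr1 was the other member in which all injured knockouts lay below all injured controls, against 8.19% of all genes. Its difference of -0.80 was not called (SE 0.32, adjusted p = 0.166). At an unadjusted p under 0.05 there were 4 of 35 members, below the 22.7% of all genes. Besides Ly86 and Msr1 these were Itgb2, with a value of 0.60 (adjusted p = 0.213), and Fcgr3, with -0.48 (adjusted p = 0.196). For the members called in both genotypes after injury, no difference between the injured groups was called. The difference was 0.00 for Lgals3 (95% interval -0.37 to 0.37), -0.09 for Mrc1 (-0.41 to 0.23), 0.04 for C1qa (-0.39 to 0.47), -0.02 for C1qc (-0.43 to 0.40) and 0.11 for Trem2 (-0.48 to 0.70).

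The median over the members changed sign with the libraries in this comparison. It was -0.12 with all libraries and 15 of 35 members positive, 0.07 with 26 positive without control replicate 23, -0.28 with 7 positive without control replicate 15, and 0.44 with 31 positive without the wt libraries, which leaves replicate 15 as the only injured control. No direction is therefore given for the members as a set between injured genotypes. Without replicate 15 there were 3 of 35 members lower, Ly86, Fcgr3 and Cd53, below the 11.8% of all genes called lower in that fit. In the fit without the wt libraries Cd53 was at 0.42 and Fcgr3 at 0.08.

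**Figure D5:**
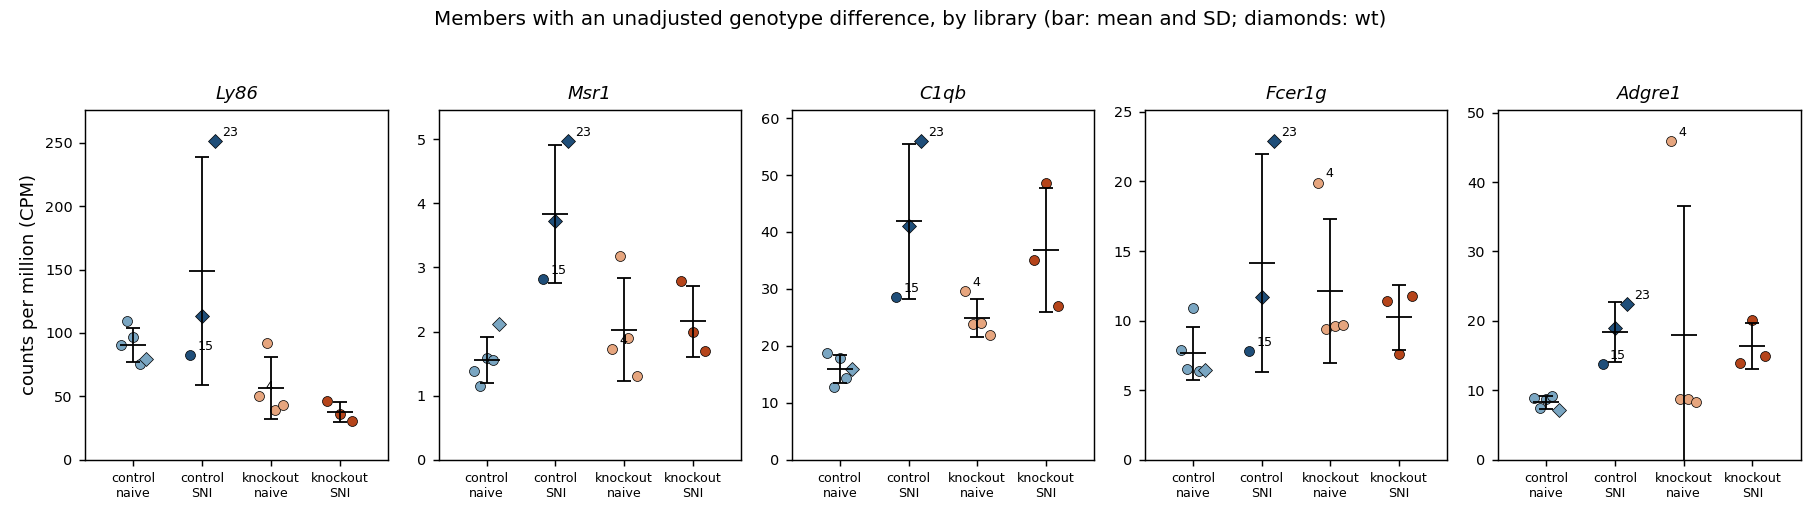
Levels in CPM of 5 members with an unadjusted p under 0.05 between genotypes in at least 1 comparison, 1 point per library, with the mean and SD of each group (the SD bar of Adgre1 is cut at 0). Ly86 has its lowest mean in the injured knockouts, whose libraries overlap with those of the naive knockouts. The naive knockouts lie above the naive controls for C1qb, and naive knockout replicate 4 is on top for Fcer1g within its group and for Adgre1 overall.

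The difference between the injury effects of the genotypes was tested as an interaction. DESeq2 and limma-voom called 0 members, where they called 0.0708% and 0% of all genes. By edgeR 0 members and 0% of all genes were called. At an unadjusted p under 0.05 there were 4 of 35, each with a smaller value in knockouts, against 13.4% of all genes in either direction. These were Msr1 at -1.19 (SE 0.43), C1qb at -0.81 (SE 0.30) and Ly86 at -1.30 (SE 0.49), all with an adjusted p of 0.365, and Fcer1g at -1.08 (SE 0.49, adjusted p = 0.366). Of the members called in 1 genotype and not in the other, only Msr1 and C1qb were among them, and neither passed. The median over the members was -0.24, but 0.34 without the wt libraries and 0.09 without both replicates 23 and 4. Lgals3 had an interaction of -0.04 (95% interval -0.53 to 0.45) and Mrc1 of -0.05 (-0.47 to 0.37).

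Other genes of macrophages were read from 7 further lists of 104 genes, not chosen by how they moved here but with earlier results of these data known. In the list of macrophage identity and growth factor signalling, 5 of 17 tested genes rose in injured controls and 8 of 17 in injured knockouts. Of all genes tested, 2.12% rose in controls and 7.17% in knockouts, shares that apply to the other lists as well. Csf1, the growth factor, which injured sensory neurons are known to make, went from 18.5 ± 1.22 CPM (SD, n = 5) to 49.5 ± 8.38 (n = 3) in controls and from 23.4 ± 1.56 (n = 4) to 97.3 ± 23.7 (n = 3) in knockouts. Its log2 fold changes were 1.43 and 2.06 (adjusted p = 6.47e-06 and 8.06e-08), and it was higher in injured knockouts than in injured controls by 0.97 (SE 0.15, adjusted p = 0.00353), with an interaction of 0.63 that was not called (adjusted p = 0.365). Its receptor Csf1r rose by 0.55 and 0.94 (adjusted p = 0.00256 and 1.01e-05). The receptors Cx3cr1, Gpr34 and P2ry13 rose in both genotypes as well, Cx3cr1 by 1.55 and 1.30.

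In the list of signalling downstream of the Fc and TYROBP adapters 0 of 18 genes rose in either genotype. At an unadjusted p under 0.05, 2 were higher in controls and 0 in knockouts, where 9.85% and 16.0% of all genes were higher. Coro1a, an actin regulator of leukocytes, fell by 0.45 in knockouts (adjusted p = 0.00646), where 2.94% of all genes fell. Of 18 oxidase and lysosome genes Cd63 rose in controls (0.82, adjusted p = 0.0135), against 2.12% of all genes. Ctsd and Grn rose in knockouts (0.24 and 0.37), against 7.17% of all genes. Of 9 resident macrophage genes 0 were called in controls, and Stab1, Axl and Mertk rose in knockouts (0.93, 0.81 and 0.66). At an unadjusted p under 0.05, 4 of the 9 were higher in controls and 5 in knockouts, with medians of 0.40 and 0.53. The interaction had 0 of the 9 at that threshold. Plin2, a lipid droplet protein, rose in both genotypes (1.17 and 0.87), and the monocyte receptor Ccr2 in knockouts (0.70, adjusted p = 0.0489), out of 10 genes of recruited and lipid-associated cells. In the complement cascade 0 of 11 genes were called with injury. At an unadjusted p under 0.05 there were 2 in controls and 4 in knockouts, against 15.7% and 27.0% of all genes. Of 13 proliferation genes 0 were called (at that p, 1 in controls, which was lower, and 0 in knockouts), with medians of -0.26 in controls and -0.10 in knockouts. Between genotypes, 1 of 10 recruited and lipid-associated genes was called higher in naive knockouts (adjusted p = 0.0203), against 0.889% of all genes. In injured knockouts 1 of 18 oxidase and lysosome genes was called higher (adjusted p = 0.0315), against 0.666%. Apart from these and Csf1, no gene of the 7 lists was called between genotypes.

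Markers of other cells that share members were summed for comparison. Each gene on these lists had counts in every group. With injury, 15.7% of all genes in controls and 27.0% in knockouts had an unadjusted p under 0.05 (9.85% and 16.0% higher). Of 10 neutrophil genes, all tested, 0 were called with injury (1 in controls and 0 in knockouts at an unadjusted p under 0.05), and they summed to 292 to 652 CPM in naive controls, 326 to 544 in naive knockouts, 238 to 834 in injured controls and 228 to 486 in injured knockouts, with replicate 23 the highest of all. T and NK cell genes summed to between 3.92 and 9.28 CPM in every library, and B cell genes to between 4.53 and 17.0. Satellite glia genes, which include Apoe, summed to 2124 CPM or more in every library, and sensory neuron genes to 10597 or more. Schwann cell genes summed to 7852 to 11991 CPM in naive controls and to 6424 to 7078 in injured controls, without overlap, with 0 of 7 genes called by edgeR and 4 at an unadjusted p under 0.05, all lower. In knockouts they summed to 8623 to 10025 CPM when naive and to 5159 to 9966 after injury. Skeletal muscle genes summed to 38.7 ± 42.4 CPM (SD, n = 5) in naive controls, 101 ± 95.1 (n = 4) in naive knockouts, 141 ± 228 (n = 3) in injured controls and 790.5 ± 615 (n = 3) in injured knockouts, with 0 of 7 genes called by edgeR with injury and 1 in controls and 4 in knockouts higher at an unadjusted p under 0.05. The part of these cells in the levels of the members was not tested.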

How the data were processed

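Poly(A) RNA libraries made with the TruSeq Stranded mRNA kit, per the labels' protocols, were sequenced from 15 animals. The authors deposited raw read counts per Ensembl gene. Their processing notes, as the submitters gave them, list HTSeq 0.6.1 and TopHat2 2.0.4 beside Cufflinks, SAMtools and DESeq2, with the build GRCm38. For the gene annotation, the strand setting and reads with several matches, the step is not given in the sources used here. Symbols and coordinates were taken from GENCODE M21. Counts were tested with edgeR 4.0.16 (R 4.3.3), using TMM scaling, filterByExpr with a minimum count of 10, 1 model with the means of the 4 groups over all 15 libraries, quasi-likelihood tests and Benjamini-Hochberg adjustment. Genes left out held 0.131% of the counts, the common biological coefficient of variation was 15.35% and 11 residual degrees of freedom remained. Intervals of 95% used the t quantile of each gene's degrees of freedom. Alternatives were RLE factors, DESeq2 1.42.0, limma-voom (limma 3.58.1), no filter, only the groups compared, no wt libraries, no mitochondrial genes, each library left out and, chosen after seeing the data, both libraries that stand apart left out. The fitting code was checked on simulated data. The members and all lists were chosen with earlier results of these data known. All members could be named, those called or marking a role were told in full, and up to 4 genes of each other list, by smallest p, were named beside any that a small count required. Promoters (RefSeq) and 3′ UTRs were searched in Python 3.11.15, and the deposited counts were summarised with pandas 2.3.3.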

Additional observations from a re-analysis of the deposited data

Results flagged for a closer look

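In 9 of the 70 member and naive group pairs with enough libraries to test, 1 library lay far from the rest, judged by its gap to the nearest library as a share of the group's range. Chance gives about 1 in 20 such groups. Naive knockout replicate 4 was the highest for Adgre1 (0.968), Fcer1g (0.965), Tyrobp (0.857) and C1qa (0.856), and naive knockout replicate 8 was the highest for P2ry12 (0.901). Among naive controls, replicate 2 was the lowest for Cd53 (0.713) and C3ar1 (0.767), replicate 3 the lowest for Cd48 (0.816) and replicate 6 the lowest for Lgals3 (0.890). Groups of 3 injured animals were not tested in this way.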

How the results depend on the processing

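Counts of members called stayed within 1.5 times those reported under RLE factors, DESeq2, limma-voom and removal of mitochondrial genes in all 5 comparisons. Fitting only the groups compared gave 3 in naive animals, 15 for injury in knockouts and 0 between injured genotypes. Of all genes, 3.06% were called higher in the first of these fits and 15% in the second. The third called 0 of 16249 genes in either direction. Without the 3 wt libraries the counts were 1 in naive animals, 0 for injury in controls, 13 for injury in knockouts and 0 between injured genotypes. Without both libraries that stand apart they were 14 for injury in knockouts, where 12.8% of all genes rose, and 0 between injured genotypes. Without the filter the count was 0 between injured genotypes. Leaving out 1 library at a time gave 0 to 0 in naive animals, 6 to 19 for injury in controls (19 without replicate 15), 2 to 8 for injury in knockouts (2 without replicate 19), 0 to 3 between injured genotypes (3 without control replicate 15; 0 without control replicate 23 or any knockout) and 0 to 1 for the interaction. The 1 was C1qb without control replicate 15 (-1.02, adjusted p = 0.0430), in a fit that called 7.17% of all genes. Values that changed sign were, without the wt libraries, those of Cd53 (-0.27), Tyrobp (-0.13) and Lyz2 (-0.38) for injury in controls and Cd53 (0.42) and Fcgr3 (0.078) between injured genotypes, and for injury in knockouts that of Adgre1 with limma-voom (0.29), without naive replicate 4 (0.93, in a range of -0.35 to 0.93 over libraries left out) and without both libraries that stand apart (0.95). The causes were not tested. The fit without wt libraries leaves replicate 15 as the only injured control. Of 720 single gene values under an alternative, 611 kept their direction and side of the threshold, 59 passed it newly, 42 lost it and 8 changed sign. No paired analysis was possible because the replicate numbers are not shared between groups. Depth limits the members near 1 CPM, such as Siglech and Msr1.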

Other observations

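A few genes of other cells passed the test after injury in knockouts, where 7.17% of all genes rose and 2.94% fell. They were 1 of 6 mast cell genes tested, 1 of 4 dendritic cell genes, 2 of 9 neuronal genes, 1 of 6 satellite glia genes and 2 of 7 endothelial genes, and none of the T and NK cell, B cell, neutrophil, red cell, fibroblast, Schwann cell or skeletal muscle genes tested. The mast cell tryptase Tpsb2 rose by 1.20 on the log2 scale (SE 0.31, adjusted p = 0.0232), and Zbtb46, a transcription factor of dendritic cells and endothelium, by 0.43 (SE 0.12, adjusted p = 0.0317). Of the neuronal genes, Tubb3, a neuronal tubulin, rose by 0.53 (adjusted p = 0.00233) and Isl1, a transcription factor of sensory neurons, fell by 0.42 (adjusted p = 0.0115). Glul, the glutamine synthetase of satellite glia, rose by 0.37 (adjusted p = 0.00967). Of the endothelial genes, Cdh5 rose by 0.57 (adjusted p = 0.0398) and Egfl7 fell by 0.46 (adjusted p = 0.0417). In controls 0 genes of these lists were called by edgeR, where 2.12% of all genes rose and 0.359% fell. At an unadjusted p under 0.05 there were 3 mast cell, 2 dendritic cell, 2 neuronal, 2 satellite glia and 0 endothelial genes, against 15.7% of all genes. None of these 7 genes passed as an interaction, their adjusted p-values lying between 0.365 and 0.738.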
